A study of Homo sapiens with 3 samples.

Results

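The carriers of organic ions, bile acids, small peptides, monocarboxylates, vitamins and nucleosides were examined in stratified cultures of an immortalized corneal epithelial line. They were taken by symbol from the solute carrier families SLC10, SLC13, SLC15, SLC16, SLC19, SLC22, SLC23, SLC28, SLC29 and SLC47 and from the SLCO family of organic anion polypeptides, 11 families in all. Every probe set annotated to a single gene of these families was kept, which gave 70 probe sets for 46 genes, out of 11963 genes measured. Family members with no such probe set in the annotation used were not analysed here. The cells were of the human corneal epithelial line iHCE, immortalized with SV40, whose large T antigen interferes with p53 and the retinoblastoma protein. Passages 22 to 23 were seeded on collagen-coated filters, kept submerged for a week and then lifted to an air-liquid interface in medium with 40 µg/ml ascorbic acid, fetal bovine serum, insulin, cholera toxin, EGF and DMSO. RNA came from 3 independent replicate cultures, called cultures 1, 2 and 3, with electrical resistances of 489, 439 and 468 Ω · cm2. Each was hybridized to 1 Affymetrix human genome array. All 3 belong to the same group, and the corneal tissue of the study was not analysed here, so no carrier was compared with tissue.

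Solute carriers move small molecules across membranes without hydrolysing ATP themselves, by exchange, by facilitated diffusion or with sodium ions or protons. In the cornea they are of interest because the epithelium is the main barrier to eye drops, and several ophthalmic or ocular drugs resemble the physiological cargo of these families. Organic cation carriers accept amines, peptide carriers accept beta-lactam antibiotics and amino acid prodrugs, nucleoside carriers accept antiviral nucleoside analogs, the reduced folate carrier accepts methotrexate, and SLCO carriers accept prostaglandins and conjugated anions.

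Of 46 genes of organic ion, peptide, monocarboxylate and nucleoside carriers, 9 were above background in the stratified cultures of the immortalized corneal epithelial line. That was 19.6%, beside 44.9% of the 11963 measured genes. The 9 were *SLC22A4*, *SLC10A3*, *SLCO3A1*, *SLC15A3*, *SLC29A3*, *SLCO4A1*, *SLC16A5*, *SLC19A1* and *SLC22A5*. Their levels ran from 8.48 ± 0.21 for the ergothioneine carrier *SLC22A4* to 7.30 ± 0.17 for the carnitine carrier *SLC22A5* (log2 expression, mean ± SD, n = 3 cultures). With a stricter threshold, the panel median plus 3 scaled MADs, 3 remained above background, *SLC22A4*, *SLC10A3* and *SLCO3A1*, while *SLC15A3*, *SLC29A3*, *SLCO4A1*, *SLC16A5*, *SLC19A1* and *SLC22A5* did not. The share of all measured genes at that threshold is not given here. The organic anion carriers of kidney and liver, the intestinal and renal peptide carriers, the sodium-dependent nucleoside carriers and the sulfate and dicarboxylate carriers were not above background.

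Above background means that all 3 arrays read higher than their own threshold. The threshold was the 95th percentile over 63 panel genes that belong to liver, muscle, pancreas, testis and other tissues. The thresholds were 7.12, 7.06 and 7.08 log2 units in cultures 1, 2 and 3, on arrays whose values ran from 3.29 to 14.69. Of the 63 genes themselves 2 were above background, *SFTPB* (7.48 ± 0.09) and *GRIN1* (7.11 ± 0.01). In the same cultures the simple epithelial markers *KRT7*, *KRT8*, *KRT18*, *KRT19* and *EPCAM* and the general epithelial cadherin gene *CDH1* were above background, 6 of 6. Of 6 corneal epithelial markers (*KRT3*, *KRT12*, *PAX6*, *ALDH3A1*, *ALDH1A1* and *GJA1*) and of 3 basal markers (*KRT5*, *KRT14* and *KRT15*) 0 were, though the line is labelled corneal. *PAX6* lay just under the threshold in culture 1 (7.113 beside 7.115). These calls describe the cultures and not the origin of the line. Markers of keratocytes, melanocytes, immune cells and endothelium, 11 measured genes, were also not above background. Culture 1 had lower readings of the poly-A controls than both other cultures at 24 of 24 probe sets (medians 5.44, 6.82 and 6.67 for cultures 1, 2 and 3). Each median lay below the threshold of its own array. Whether such controls were added to these samples was not given in the sources used here.

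Most carriers were not above background. Of the 46 genes 9 were above background on all 3 arrays at their brightest probe set, or 19.6%, beside 44.9% of the 11963 measured genes. A further 2 exceeded the threshold on 1 or 2 arrays and 35 on none. By probe set, 10 of 70 carrier probe sets were above background, or 14.3%, beside 36.4% of the 19071 probe sets that name 1 gene. The margin over the threshold, averaged over cultures and tested one-sided in limma with Benjamini-Hochberg adjustment over all those probe sets, gave 8 carrier genes (17.4%) beside 43.8% of all genes. All 8 were among the 9, and the gene without a limma call was *SLC22A5*. The median level of the carrier genes was 5.96, below every threshold, and that of all genes 6.98. Because affinity varies between probe sets, a higher reading of 1 gene than another does not mean more RNA, and a value below the threshold gives no order. In RNA of a whole culture, a gene expressed in few cells and a gene with little RNA per cell cannot be told apart.

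**Figure D1:**
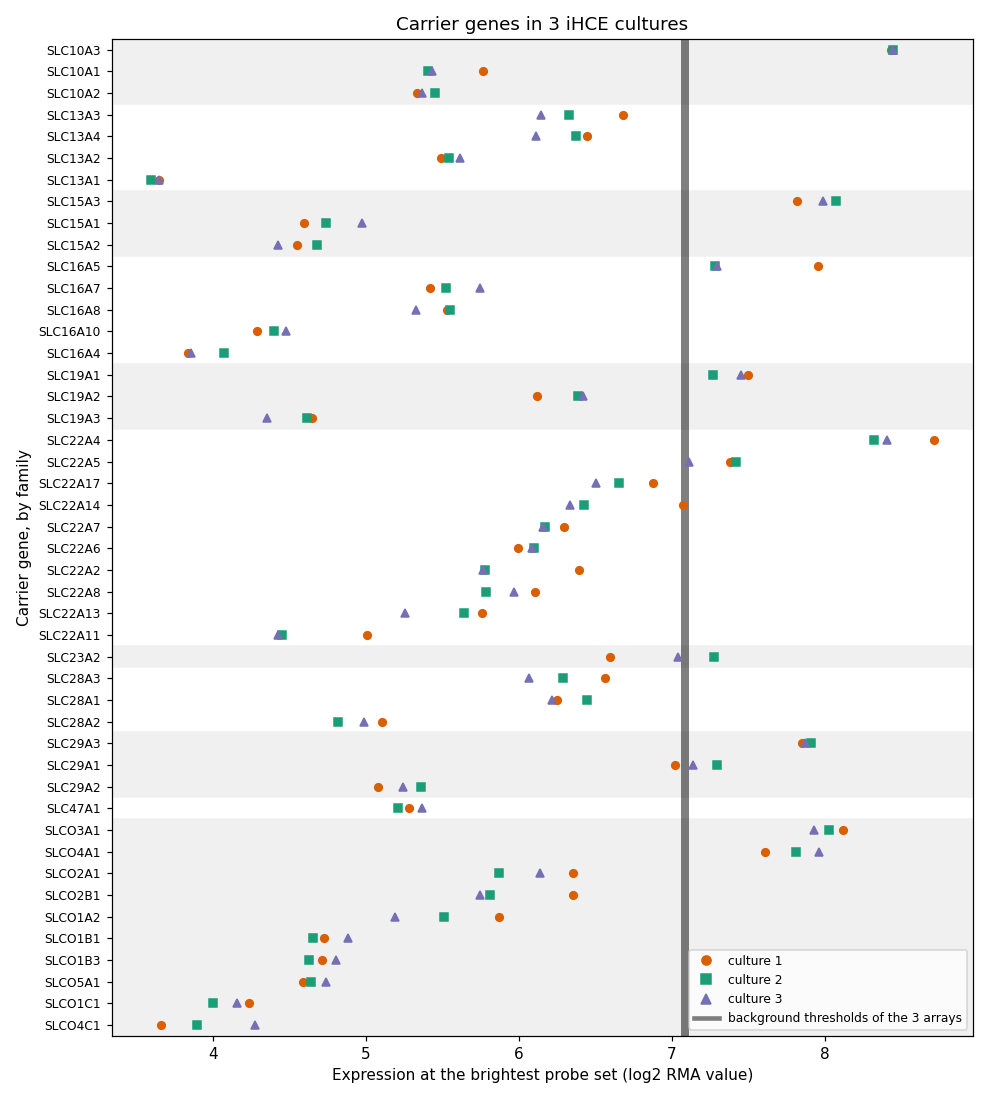
Expression of the 46 carrier genes at the brightest probe set, in log2 RMA values, with 1 marker for each of the 3 cultures and genes ordered by mean within each family; the dark band spans the background thresholds of the arrays, 7.06 to 7.12. Of the 9 genes above background, which come from 7 of the 11 families, 8 have all 3 markers to the right of the band, and *SLC22A5* in culture 3 (7.11) lies inside it, above the 7.08 of its own array.

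Of the organic cation, zwitterion and anion carriers of family SLC22, 2 of 10 genes were above background, and both carry zwitterions. *SLC22A4*, the ergothioneine carrier, read 8.72, 8.32 and 8.40 in cultures 1, 2 and 3, every value at least 1.26 log2 units over its threshold. Its mean was 1.39 ± 0.10 (SE) above the threshold (limma, adjusted p = 6.21e-06). *SLC22A5*, the sodium-dependent carnitine carrier, read 7.38, 7.42 and 7.11, and on the array of culture 3 the value exceeded the threshold by only 0.03. Its mean lay 0.22 ± 0.09 (SE) above the threshold, which did not pass the limma test (adjusted p = 0.0775). The lipocalin receptor gene *SLC22A17* read 6.88, 6.66 and 6.51 and the testis gene *SLC22A14* read 7.07, 6.43 and 6.34, both below the threshold on each array. The renal cation carrier gene *SLC22A2* (5.98 ± 0.36), the renal anion carrier genes *SLC22A6* (6.06 ± 0.06) and *SLC22A8* (5.95 ± 0.16), and the hepatic anion carrier gene *SLC22A7* (6.21 ± 0.08) were below it on every array. *SLC22A11* and *SLC22A13*, which carry organic anions and urate, had levels of 4.63 ± 0.33 and 5.55 ± 0.26.

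The promoter windows of *SLC22A4* and *SLC22A7* are shown because they set a member above background beside a member of the same family below it, and they differ in CpG dinucleotides, which are in capitals. The windows are from RefSeq (GRCh38.p14) and hold 250 bases before and 50 after the start of the gene, 5′ to 3′. That of *SLC22A4* (chr5:132294144-132294443, plus strand) holds 29 CpG and that of the hepatic anion carrier *SLC22A7* (chr6:43298010-43298309, plus strand) 1 CpG. Other family members below the threshold varied, with 12 CpG for *SLC22A17*, 11 for *SLC22A2*, 3 for *SLC22A14* and 0 for *SLC22A6*.
SLC22A4: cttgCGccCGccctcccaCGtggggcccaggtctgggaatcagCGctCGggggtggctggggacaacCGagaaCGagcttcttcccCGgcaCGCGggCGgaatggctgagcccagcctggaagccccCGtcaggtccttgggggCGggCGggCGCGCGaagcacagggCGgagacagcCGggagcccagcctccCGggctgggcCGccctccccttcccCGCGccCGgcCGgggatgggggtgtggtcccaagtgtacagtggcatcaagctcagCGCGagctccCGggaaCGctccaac
SLC22A7: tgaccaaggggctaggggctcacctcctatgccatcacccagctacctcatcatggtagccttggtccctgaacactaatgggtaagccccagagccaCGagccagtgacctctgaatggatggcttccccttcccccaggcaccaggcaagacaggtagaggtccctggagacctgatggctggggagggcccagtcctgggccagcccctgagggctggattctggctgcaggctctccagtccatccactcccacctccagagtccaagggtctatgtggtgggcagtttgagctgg

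Family SLC47 was represented by *SLC47A1*, the proton-coupled exporter of organic cations in kidney and liver. It read 5.28, 5.21 and 5.37 in cultures 1, 2 and 3, below the threshold on each array.

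Among the organic anion polypeptides 2 of 10 genes were above background. *SLCO3A1*, a widely expressed member that accepts prostaglandins, read 8.12, 8.03 and 7.93 in cultures 1, 2 and 3 (limma, adjusted p = 2.34e-05). Its other probe set read 7.23, 7.20 and 7.17, also over the threshold on each array, though its mean margin did not pass the limma test (adjusted p = 0.247). *SLCO4A1*, a thyroid hormone carrier, read 7.61, 7.81 and 7.96 (limma, adjusted p = 0.000361). The prostaglandin transporter gene *SLCO2A1* read 6.36, 5.87 and 6.14, below the threshold on each array. The hepatic carrier genes *SLCO1B1* and *SLCO1B3* had levels of 4.75 ± 0.12 and 4.72 ± 0.09. The remaining 5 genes had levels between 3.94 and 5.97. They were the drug carrier genes *SLCO1A2* and *SLCO2B1*, the brain thyroxine carrier gene *SLCO1C1*, the renal *SLCO4C1* and the orphan *SLCO5A1*.

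The proton-coupled peptide carriers were split between the plasma membrane and the lysosomal members. *SLC15A3*, which carries histidine and small peptides out of endosomes and lysosomes, read 7.82, 8.07 and 7.99 in cultures 1, 2 and 3, with a mean 0.87 ± 0.09 (SE) over the threshold (limma, adjusted p = 6.84e-05). *SLC15A1*, the intestinal peptide carrier that takes up beta-lactams and valacyclovir, read 4.60, 4.74 and 4.97. *SLC15A2*, the high-affinity peptide carrier of kidney, read 4.55, 4.68 and 4.42. Both probe sets of each of these plasma membrane carriers were far below the threshold, with margins of -2.11 or lower on every array.

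Among the nucleoside carriers, the equilibrative family SLC29 was partly above background and the sodium-dependent family SLC28 was not. *SLC29A3*, an equilibrative carrier of intracellular membranes, read 7.85, 7.91 and 7.87 (limma, adjusted p = 5.37e-05), values that differed by at most 0.06. *SLC29A1*, the main equilibrative carrier of the plasma membrane, read 7.02, 7.30 and 7.14. It was over the threshold in cultures 2 and 3 and below it in culture 1, and its mean margin of 0.07 ± 0.09 (SE) did not pass the limma test (adjusted p = 0.651). *SLC29A2*, its nucleobase-carrying relative, had a level of 5.23 ± 0.14. *SLC28A1*, *SLC28A2* and *SLC28A3*, which concentrate pyrimidine, purine or both kinds of nucleosides, had levels of 6.30 ± 0.12, 4.97 ± 0.14 and 6.31 ± 0.25, below the threshold on each array.

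The same windows are shown for a nucleoside carrier above background and for one below it, here from different families, SLC29 and SLC28. CpG are again in capitals. The window of *SLC29A3* (chr10:71319009-71319308, plus strand) holds 32 CpG and that of *SLC28A1* (chr15:84884412-84884711, plus strand) 4 CpG. Within family SLC29 the contrast is small, as the window of *SLC29A1*, not above background on all arrays, holds 27 CpG.
SLC29A3: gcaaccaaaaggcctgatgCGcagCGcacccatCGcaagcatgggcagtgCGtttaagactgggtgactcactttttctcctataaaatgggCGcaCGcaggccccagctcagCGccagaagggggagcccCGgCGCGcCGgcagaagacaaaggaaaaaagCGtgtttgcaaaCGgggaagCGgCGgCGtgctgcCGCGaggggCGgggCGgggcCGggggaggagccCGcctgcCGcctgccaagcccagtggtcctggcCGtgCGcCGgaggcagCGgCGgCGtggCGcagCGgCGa
SLC28A1: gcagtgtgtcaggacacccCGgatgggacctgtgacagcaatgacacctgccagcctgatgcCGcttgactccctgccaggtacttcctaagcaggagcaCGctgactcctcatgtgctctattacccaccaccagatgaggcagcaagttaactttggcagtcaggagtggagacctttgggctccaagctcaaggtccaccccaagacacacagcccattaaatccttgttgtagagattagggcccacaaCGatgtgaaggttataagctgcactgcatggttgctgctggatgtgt

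Of 5 monocarboxylate carrier genes of family SLC16 that were measured, *SLC16A5* was above background. It encodes a carrier of drugs such as bumetanide and read 7.96, 7.28 and 7.30 in cultures 1, 2 and 3 (limma, adjusted p = 0.0254), so that culture 1 stood apart by 0.66 log2 units from the mean of the others. *SLC16A7*, a high-affinity pyruvate carrier, had a level of 5.57 ± 0.17, and *SLC16A8*, the lactate carrier of the retinal pigment epithelium, 5.47 ± 0.12. *SLC16A10*, which carries aromatic amino acids, and the orphan *SLC16A4* had levels of 4.39 ± 0.09 and 3.92 ± 0.13.

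Of the vitamin carriers, *SLC19A1*, the reduced folate carrier that also takes up methotrexate, read 7.50, 7.27 and 7.46 (limma, adjusted p = 0.00986). The thiamine carrier genes *SLC19A2* (6.31 ± 0.17) and *SLC19A3* (4.54 ± 0.16) were not above background. *SLC23A2*, the sodium-dependent ascorbate carrier, was the single measured member of its family, in cultures that received ascorbic acid. It read 6.59, 7.28 and 7.04 in cultures 1, 2 and 3, over the threshold in culture 2 and below it in the others (limma, adjusted p = 1.0). At its brightest probe set culture 1 lay 0.57 log2 units below the mean of cultures 2 and 3. This difference of -0.57 was the most negative among the carrier probe sets. The other probe sets of *SLC23A2*, below the threshold on each array, differed by 0.11 and 0.01.

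Families SLC10 and SLC13 gave 1 gene above background out of 7. *SLC10A3*, a widely expressed member of the bile acid carrier family with no known cargo, read 8.43, 8.44 and 8.45 in cultures 1, 2 and 3 (limma, adjusted p = 2.2e-06). Its SD of 0.01 was the smallest among the 9 genes above background. The bile acid carrier genes of liver and ileum, *SLC10A1* and *SLC10A2*, had levels of 5.53 ± 0.20 and 5.39 ± 0.06. The renal sulfate carrier gene *SLC13A1* had a level of 3.63 ± 0.03 and the placental sulfate carrier gene *SLC13A4* 6.31 ± 0.17. The dicarboxylate carrier genes *SLC13A2* and *SLC13A3* had levels of 5.55 ± 0.06 and 6.39 ± 0.27.

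Probe sets of the same carrier often differed more than the cultures did. Of 17 genes with several probe sets, the brightest exceeded the dimmest by a median of 0.82 log2 units, and by 0.03 to 2.50. The calls of the probe sets differed within 2 genes. *SLC19A1* had means of 7.41, 6.51, 5.20 and 4.91 at its 4 probe sets, of which 1 was above background. *SLC16A5* had means of 7.51, 7.04 and 6.50, of which 1 was above background, and the intermediate probe set exceeded the threshold in culture 1 only (7.17). When the probe sets of a gene were averaged, neither *SLC19A1* nor *SLC16A5* was above background. Both probe sets of *SLCO3A1* were above background, and in the other 14 genes 0 were. The 3 probe sets of *SLC23A2* had means of 6.97, 6.49 and 4.84, and only the brightest was lower in culture 1 than in both others.

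**Figure D2:**
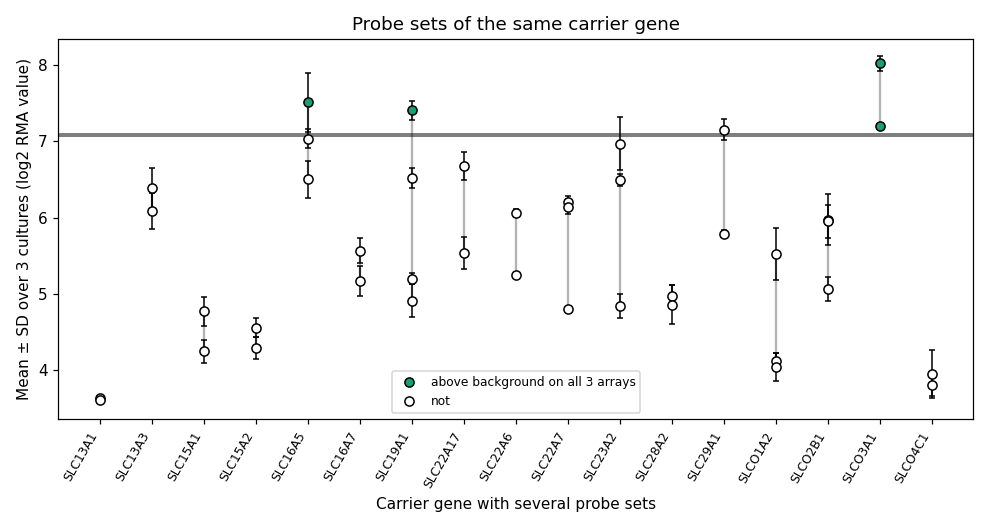
Mean and SD (bars) over 3 cultures of each probe set of the 17 carrier genes with several probe sets, in log2 RMA values; filled points were above background on all 3 arrays and the dark band spans the thresholds. The 4 probe sets of *SLC19A1* spread over 2.50 log2 units, with 1 of them above the band.

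The median SD of all 46 carriers was 0.152, beside 0.143 for all genes measured. That of the 9 genes above background was 0.128, beside 0.145 for all genes above background. Without culture 1 the carrier genes above background were 10, with *SLC29A1* added, and their median SD was 0.0639. The median SD of all genes without culture 1 is not given here. Whether the lower value is particular to the carriers was not tested. The widest range among the 46 genes was 0.74 log2 units, for *SLC22A14*. Culture 1 stood apart from both others in 5 of the 9 genes, beside 50.6% of all genes above background. It was higher in *SLC16A5* and *SLC22A4* and lower in *SLC10A3*, *SLC15A3* and *SLCO4A1*, although for *SLC10A3* the range was 0.02.

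In family SLC22, of which 2 probe sets were above background, most readings were higher in culture 1. The family was picked out after the data were seen, and its 14 probe sets belong to 10 genes. Culture 1 was the highest of the 3 at 10 of the 14. The same was so at 9 of 16 SLCO probe sets and at 0 of those of SLC15, SLC29 and SLC47. In SLC22 the difference of culture 1 from the mean of cultures 2 and 3 had a median of 0.27 log2 units, from -0.10 to 0.69. Over all probe sets that name 1 gene this median was 0.01. Among carrier probe sets of all families that exceeded the threshold on no array, culture 1 was the highest at 25 of 57, or 43.9%, beside 39.5% of all such probe sets. In SLC22 this was so at 9 of 12. Culture 1 read at least 0.5 log2 units higher at *SLC16A5*, which was above background, and at *SLC22A14* (7.07, 6.43 and 6.34), *SLC22A2* (6.40, 5.78 and 5.76), *SLC22A11* (5.01, 4.46 and 4.43), *SLCO2B1* and *SLCO1A2*, which were below the threshold on each array. These are 6 of the 70 carrier probe sets, or 8.57%, beside 2.78% of all probe sets that name 1 gene. The sets differ in level and are not like for like. Of the carrier probe sets 57 of 70 exceeded the threshold on no array, beside 10952 of all 19071. For *SLC16A5*, *SLCO2B1* and *SLCO1A2* only 1 of 3 probe sets differed by as much. The others differed by 0.21 and 0.36, by 0.02 and 0.28, and by -0.17 and 0.29. Culture 1 was lower by at least 0.5 at 1 probe set, of *SLC23A2*, or 1.43%, beside 5.42%. Of the 14 SLC22 probe sets 12 were below the threshold on each array, where readings give no order of expression, so their differences describe the arrays and are not given as differences in expression. With 1 array per culture the differences have no replicate. Any relation to the lower readings of the poly-A control probe sets in culture 1 was not tested.

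**Figure D3:**
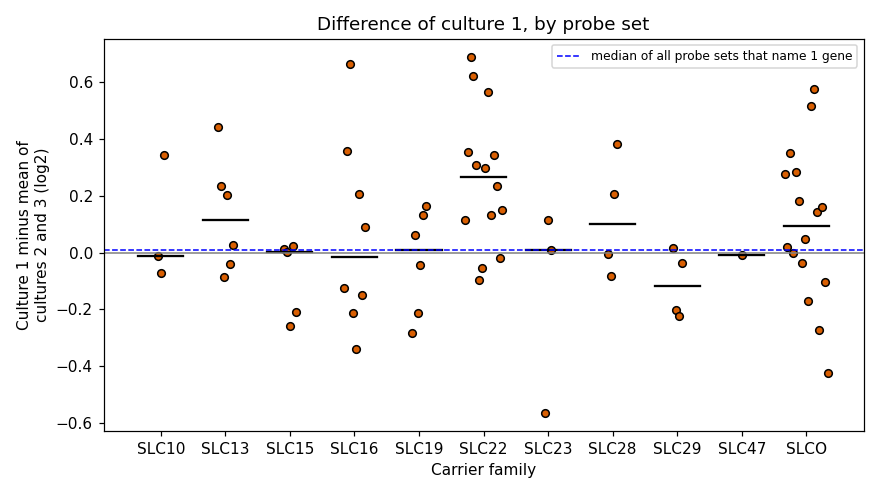
Value of culture 1 minus the mean of cultures 2 and 3 (log2 units) for each of the 70 carrier probe sets, by family; black lines are family medians and the dashed line is the median of all probe sets that name 1 gene (0.01). The SLC22 points lie mostly above 0, with a median of 0.27.

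Genes that act beside these carriers were above background in 33 of 57 cases measured (57.9%), beside 44.9% of all genes. Of 6 measured chaperones of monocarboxylate carriers and lactate and pyruvate genes, 5 were above background. *BSG*, which encodes basigin, the chaperone that brings several monocarboxylate carriers to the membrane, read 8.88, 8.30 and 8.47 (limma, adjusted p = 1.31e-05). The lactate dehydrogenase genes *LDHA* and *LDHB* had levels of 12.66 ± 0.08 and 12.38 ± 0.07, and the exception was the testis form *LDHC* (5.64 ± 0.17). Of 5 adaptors that hold carriers at the apical membrane through PDZ domains or regulate them, 1 was above background, *NHERF1* (8.78 ± 0.11), while *PDZK1*, the adaptor of several renal and intestinal carriers, had a level of 4.51 ± 0.15. The other 3, *NHERF2*, *NHERF4* and *PDZK1IP1*, lay between 4.40 and 6.57.

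Of 13 genes of nucleoside salvage 10 were above background, led by *HPRT1* (10.76 ± 0.08) and the adenosine kinase gene *ADK* (9.98 ± 0.17). The deoxycytidine kinase gene *DCK*, which activates several nucleoside analogs, read 7.05, 7.16 and 7.59, over the threshold in cultures 2 and 3. The ecto-nucleotidase gene *NT5E* read 6.32, 7.52 and 8.13, also over the threshold in cultures 2 and 3, and *TYMP* was below it (6.62 ± 0.22). Of 8 genes of folate and thiamine handling 4 were above background, among them *SHMT2* (11.81 ± 0.06) and *MTHFD1* (9.90 ± 0.11). *FPGS*, whose product traps folates and methotrexate in the cell, had a level of 7.98 ± 0.09. The mitochondrial folate carrier gene *SLC25A32* read 7.11, 7.68 and 7.82, over the threshold in cultures 2 and 3 (limma, adjusted p = 0.0278). The folate receptor genes *FOLR1* and *FOLR2* were not above background (6.81 ± 0.21 and 6.91 ± 0.04), nor was *SHMT1* (4.63 ± 0.19). Of 6 peptidase genes 4 were above background, led by *LAP3* (10.35 ± 0.19) and *CNDP2* (9.93 ± 0.19), and the membrane peptidases *DPP4* and *ANPEP* were not (5.64 ± 0.11 and 4.67 ± 0.06).

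Of 5 genes of carnitine use 4 were above background, *CPT1A* (8.23 ± 0.60), *CRAT* (8.15 ± 0.14), *CPT2* (7.59 ± 0.13) and the mitochondrial carnitine carrier gene *SLC25A20* (7.48 ± 0.08). *BBOX1*, for the last step of carnitine synthesis, was not (4.46 ± 0.21). Of 7 genes of prostaglandin handling 1 was above background, the synthase gene *PTGES* (11.32 ± 0.16). The degrading enzyme gene *HPGD* had a level of 5.52 ± 0.25, *PTGS1* exceeded the threshold in culture 1 only (7.28, 6.97 and 7.01), and *PTGS2*, the prostaglandin exporter gene *ABCC4* and the receptor genes *PTGER2* and *PTGER4* lay between 4.96 and 6.33. Of 7 regulators of carrier genes 4 were above background, *HIF1A* (11.55 ± 0.13), *NFE2L2* (9.87 ± 0.18), *MYC* (8.19 ± 0.34) and *ESRRA* (7.49 ± 0.16). The xenobiotic receptor gene *NR1I3* and the lipid sensor gene *PPARA* were not (5.38 ± 0.09 and 4.68 ± 0.15), and *AHR* lay just under the threshold on each array (7.11, 6.92 and 7.04).

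**Figure D4:**
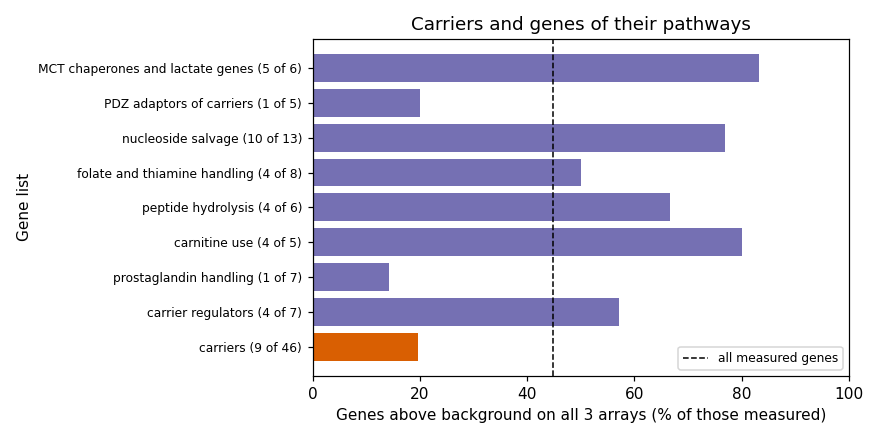
Share of measured genes above background on all 3 arrays, in percent, for 8 lists of partner and pathway genes (purple) and for the 46 carriers (orange), with counts beside the names; the dashed line marks all measured genes (44.9%). The carriers reach 19.6% and the chaperone and lactate list, 5 of 6, 83.3%.

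As in the printed windows of *SLC22A4* and *SLC29A3*, promoters of the carriers above background were mostly rich in CpG. So were those of all measured genes above background. RefSeq windows of 300 bases were matched by Entrez number for 31 of the 46 carriers, and for 6 of the 9 above background. No window was matched for *SLC15A3*, *SLC16A5* and *SLCO4A1*. At least 15 CpG dinucleotides were found in 5 of the 6 windows of carriers above background (83.3%) and in 6 of the 25 others (24.0%). The median counts were 33.5 and 3. Among all measured genes with a window the shares were 87.1% and 57.7%, and the medians 27 and 19. The share of the carriers above background was thus near that of all genes above background. The exceptions were *SLC19A1*, above background with 5 CpG, and *SLC29A1*, *SLC19A2*, *SLC15A1*, *SLC16A10*, *SLCO4C1* and *SLC19A3*, not above background on all arrays with 18 to 32. The choice of start site decides which window a gene gets, and many genes have several. The counts are a description of the windows.

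The windows of *SLC22A4* and *SLC29A3* held the GC box, with the letters GGGCGG on either strand, and those of *SLC22A7* and *SLC28A1* did not. Over the 31 windows it was found in 5 of 6 carriers above background and 7 of 25 others, beside 73.0% of measured genes above background, 54.1% of those not above it and 44.6% of 27305 RefSeq promoter windows. The TATA box, TATAAA on either strand, was found in 5 of the 31 windows (16.1%), those of *SLC29A3*, *SLC10A2*, *SLC13A2*, *SLC22A6* and *SLCO1B1*, beside 8.3% of measured genes and 12% of RefSeq windows. The E-box, CACGTG, which reads the same on both strands, was found in 2, *SLC22A4* and *SLC29A1* (6.45%), beside 9.51% of measured genes and 7.43% of RefSeq windows. The GC box and the E-box each contain a CpG, so these counts overlap with that of CpG, and a match marks letters in a window and not a site of binding.

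**Figure D5:**
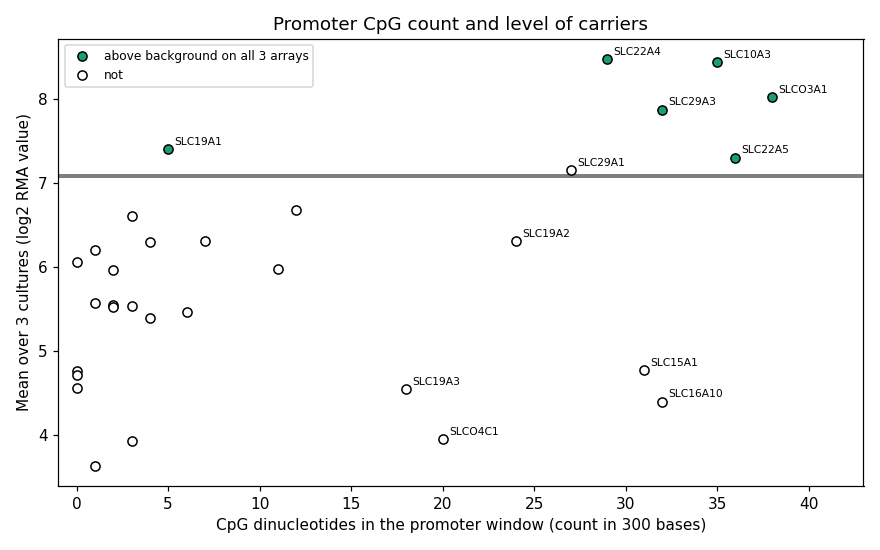
Mean log2 RMA value over 3 cultures against the count of CpG dinucleotides in the 300-base promoter window, for the 31 carriers with a window; filled points were above background on all 3 arrays and the dark band spans the thresholds. Of the 6 filled points 5 lie at 29 CpG or more, and *SLC19A1* at 5.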

How the data were processed

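Total RNA of 3 iHCE cultures was measured on Affymetrix human genome arrays, 1 per culture. The authors computed the values by RMA in R 2.8.0 (per the labels and the methods) and deposited them as log2 expression for 22283 probe sets. RMA corrects background, equalizes the arrays and summarises perfect match probes, so total brightness is removed and low values are compressed. The methods describe RMA across the cultures and earlier tissue arrays together, on re-annotated probes. The deposited table holds the original probe sets, and whether it comes from the same joint run was not given in the sources used here. Arrays give no counting depth, and their number, 3, limits the precision. The SD covers culture and technical variation together.

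Probe sets were named through the platform annotation, with symbols updated by Entrez number from RefSeq (GRCh38.p14). 19071 named 1 gene, 1043 several, and 2169 were unnamed here. Of those with 1 gene, 12 were not found in RefSeq and kept the older symbol. A gene was read at its brightest probe set. The background threshold was the 95th percentile, on each array, of 63 measured of 69 panel genes. The limma test (limma 3.58.1, R 4.3.3, one-sided, eBayes on the values minus the threshold, taken as fixed) was adjusted after Benjamini and Hochberg over 19071 probe sets, at 0.05, and was tested on simulated data. CpG and motifs were counted in Python 3.11.15.

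The carriers, partner lists and panel were chosen with earlier results of these data known. Each carrier gene is named, and of the partner lists the 2 brightest genes above background and the exceptions. The single probe set shared by *SLC23A3* and *NHEJ1* and the pseudogene *SLC19A4P* were left out as members. The motifs and the CpG limit of 15 were chosen after the levels were seen. 11 alternative settings were run.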

Additional observations from a re-analysis of the deposited data

How the results depend on the processing

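Of the 9 carriers above background, *SLC22A4*, *SLC10A3* and *SLCO3A1* kept the call under every alternative setting that measured them (11 settings, and 10 for *SLC10A3*, which has no probe set left without _x_at and _s_at types). The threshold mattered most. With the panel median plus 3 scaled MADs 3 carrier genes and 3 carrier probe sets were above background, the calls of *SLC15A3*, *SLC29A3*, *SLCO4A1*, *SLC16A5*, *SLC19A1* and *SLC22A5* being lost, and with the highest panel value 6 genes and 6 probe sets, without *SLC16A5*, *SLC19A1* and *SLC22A5*. With the 90th percentile there were 10 genes, *SLC29A1* being added. The share of all measured genes at these thresholds is not given here. Whether the carriers moved more than genes in general cannot be read from the counts. Without _x_at and _s_at probe sets culture 1 stood apart in 3 carrier genes, and 7 of 38 measured carriers were above background. These were 6 kept calls and *SLC29A1*, while *SLC10A3*, *SLC19A1* and *SLCO4A1* had no probe set left. The threshold was recomputed from the remaining panel probe sets, and the share of all genes under this setting is not given here. Without replicate 1, 2 or 3 the count of genes was 9 to 10, that of probe sets 10 to 11 and that of partner genes 33 to 36. The median SD of the carriers above background, taken over the remaining replicates, was 0.0639 (without replicate 1) to 0.141. *SLC29A1* was added without replicate 1. Quantile normalization and a panel of all probe sets left 9 genes. The count of SLC22 probe sets highest in culture 1, with settings chosen after seeing the data, was 11 of 14 after quantile normalization and 8 of 10 without _x_at and _s_at types. Values near the threshold cannot be called firmly with 3 arrays. No paired analysis was possible because the study has 1 group here.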

Other observations

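The probe set annotated to both *SLC23A3*, an orphan relative of the ascorbate carriers, and the DNA repair gene *NHEJ1* read 8.27, 8.56 and 8.44 in cultures 1, 2 and 3, over the threshold on each array, and it cannot be assigned to either gene. The probe set of the pseudogene *SLC19A4P* had a level of 5.66 ± 0.07 (SD, n = 3) and exceeded the threshold on 0 arrays. Among the partner genes, *NT5E* spread widest over the cultures, with an SD of 0.92, followed by *CPT1A*, which read 7.80, 8.92 and 7.98.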
